A study of Mus musculus with 20 samples.

Results

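The Dlx genes encode homeodomain transcription factors of the Distal-less family. The 7 members described here are Dlx1, Dlx2, Dlx3, Dlx4, Dlx5, Dlx6 and the non-coding antisense gene Dlx6os1, chosen by symbol from the 43280 gene symbols counted in every RNA-seq library. The protein-coding members lie in 3 convergently transcribed pairs (Dlx1 with Dlx2, Dlx3 with Dlx4, Dlx5 with Dlx6), the genes of a pair share enhancers between them, and their proteins bind DNA sites with the core TAATT. The family is known for patterning the branchial arches and limb buds, for skeletal differentiation and for the GABAergic neurons of the forebrain. EED is a core subunit of Polycomb Repressive Complex 2 (PRC2), the histone methyltransferase complex that keeps many developmental genes silent, Dlx genes among them.

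The study asked how PRC2 acts in the gut mesenchyme, the connective and muscle-forming layer around the gut epithelium. Embryonic cells were sorted for GFP from microdissected stomachs (St) and intestines (Int) of embryos at E13.5. Control embryos carried Bapx1-cre and Rosa26mTmG, a reporter that turns on GFP where Cre has acted, and Eed KO embryos carried Eed fl/fl in addition, so both the deletion and the sort were limited to cells with a history of Bapx1 expression. Adult cells were GFP-positive cells of the small intestine of mice about 10 weeks old with Pdgfrb-CreERT2/+ and Rosa26mTmG, with Eed fl/fl (Eed KO) or without it (control), after tamoxifen at 100 mg/kg per day for 5 days and dissection 2 days later. RNA was measured in 8 embryonic and 4 adult libraries, 2 per group, and open chromatin by ATAC-seq in 8 embryonic libraries, which the authors pooled into 4 peak lists, 1 per organ and genotype.

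Gene counts came to between 30236159 and 39606157 per embryonic library and between 11404712 and 15903642 per adult library. The share of counts from spike-in transcripts was 0.110% and 0.0909% in control stomach, 0.0337% and 0.0134% in Eed KO stomach, 0.0720% and 0.0887% in control intestine, and 0.0403% and 0.0152% in Eed KO intestine. Every embryonic Eed KO library had a lower spike-in share than every embryonic control library. Scaling by spike-in totals in place of TMM moved the median log2 fold change of all tested genes from 0.00 to 2.39 in the stomach and from 0.01 to 1.85 in the intestine. The fold changes below use TMM, which sets the typical gene to no change, and so are changes relative to most genes.

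The labelled tissue was checked against 9 genes of gut mesenchyme (Foxf1, Foxf2, Nkx3-2, Pdgfra, Pdgfrb, Col1a1, Col3a1, Vim, Twist1). All 9 had counts in every embryonic library, their summed level lay between 11306 and 19295 CPM (counts scaled to a common library size), and Col3a1 was the most abundant. Nkx3-2, which is the Bapx1 gene, averaged between 19.9 and 33.8 CPM in the 4 embryonic groups. Between Eed KO and control edgeR called 0 of the 9 in the stomach, with 3 at an unadjusted p under 0.05 and 0 by DESeq2, and 0 in the intestine, with 4 at an unadjusted p under 0.05 and 0 by DESeq2.

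Eed itself had 1382 and 1627 counts in the control stomach libraries against 427 and 270 in the Eed KO stomach libraries. Intestine libraries had 1356 and 1193 counts in control against 407 and 301 in Eed KO. Both Eed KO libraries lay below both control libraries in each organ, and Eed transcripts were still counted in all 4. In edgeR the log2 fold change was -2.11 for the stomach (SE 0.21, adjusted p 0.00175) and -2.02 for the intestine (SE 0.21, adjusted p 0.00464). Under spike-in totals these became 0.14 and -0.23, neither called, which is still below the medians of 2.39 and 1.85 for all genes on that scale. SE here is the size of the log2 fold change divided by the square root of the edgeR F value, not a fitted error. The labels do not say which libraries share an embryo or a litter, so p-values here measure the spread between these libraries.

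Dlx transcripts were scarce in control mesenchyme and more abundant in both organs of Eed KO embryos. The 7 members together had 24 and 34 counts in the control stomach libraries and 177 and 256 in the Eed KO stomach libraries. In the intestine they had 11 and 15 counts in control against 195 and 267 in Eed KO. For every member, both Eed KO libraries of an organ lay above both of its control libraries, as they did for 27.7% of the 16218 genes tested in the stomach and 21.8% in the intestine. In bulk RNA, more cells that transcribe a gene and more transcript per cell cannot be told apart.

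A gene was called when its edgeR adjusted p was under 0.05 and its log2 fold change was over 1 in size. In the stomach 4 of the 7 members were called higher in Eed KO (Dlx4, Dlx5, Dlx6, Dlx6os1), against 4.84% of the 16218 genes tested. DESeq2 called the same number. Leaving out a library keeps 1 library in its group, which is then assumed to vary like the other groups. Without control stomach replicate 1 edgeR called 1 member (Dlx5), without control stomach replicate 2 also 1 (Dlx5), without Eed KO stomach replicate 1 it called 3 (Dlx4, Dlx5, Dlx6), and without Eed KO stomach replicate 2 it called 2 (Dlx5, Dlx6). With 1 factor of unwanted variation taken from the spike-ins, edgeR called 0 members in the stomach, with 4 at an unadjusted p under 0.05. The paper also normalized on spike-ins, with RUV-seq. Spike-in shares separate the genotypes in these libraries, so the factor can take up part of the Eed KO effect. How much it takes up was not tested. Under spike-in totals all 7 were called higher, as were 15419 of the 16218 genes, so this scaling does not set the family apart. Every member kept a positive log2 fold change in each setting in which it was fitted, in both organs, but not its size. In the stomach it fell from 1.97 to 0.18 for Dlx3 (edgeR adjusted p 0.940) and from 1.26 to 0.23 for Dlx1 (0.896) with the spike-in factor.

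In the intestine the same 4 members were called higher, against 2.38% of the 16218 genes tested, and DESeq2 called 4 as well. Without control intestine replicate 1 edgeR called 0 members, with 4 at an unadjusted p under 0.05 and a lowest adjusted p of 0.0614 (Dlx6), and DESeq2 was not run on that subset. Without control intestine replicate 2 it called 1 (Dlx6), and without Eed KO intestine replicate 1 or replicate 2 it called 2 (Dlx5, Dlx6). With the spike-in factor it called 1 (Dlx6). The comparisons in the 2 organs use separate control libraries but share 1 fit for the spread between libraries.

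All 7 members passed the filter on low counts, and they did so through Eed KO libraries. No member had 10 counts in more than 1 control library of an organ, and none had 10 counts in a control intestine library. A gene that passes only through the group where it is high is bound to differ, so the counts of called members are a description of the family and not a test of it.

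**Figure D1:**
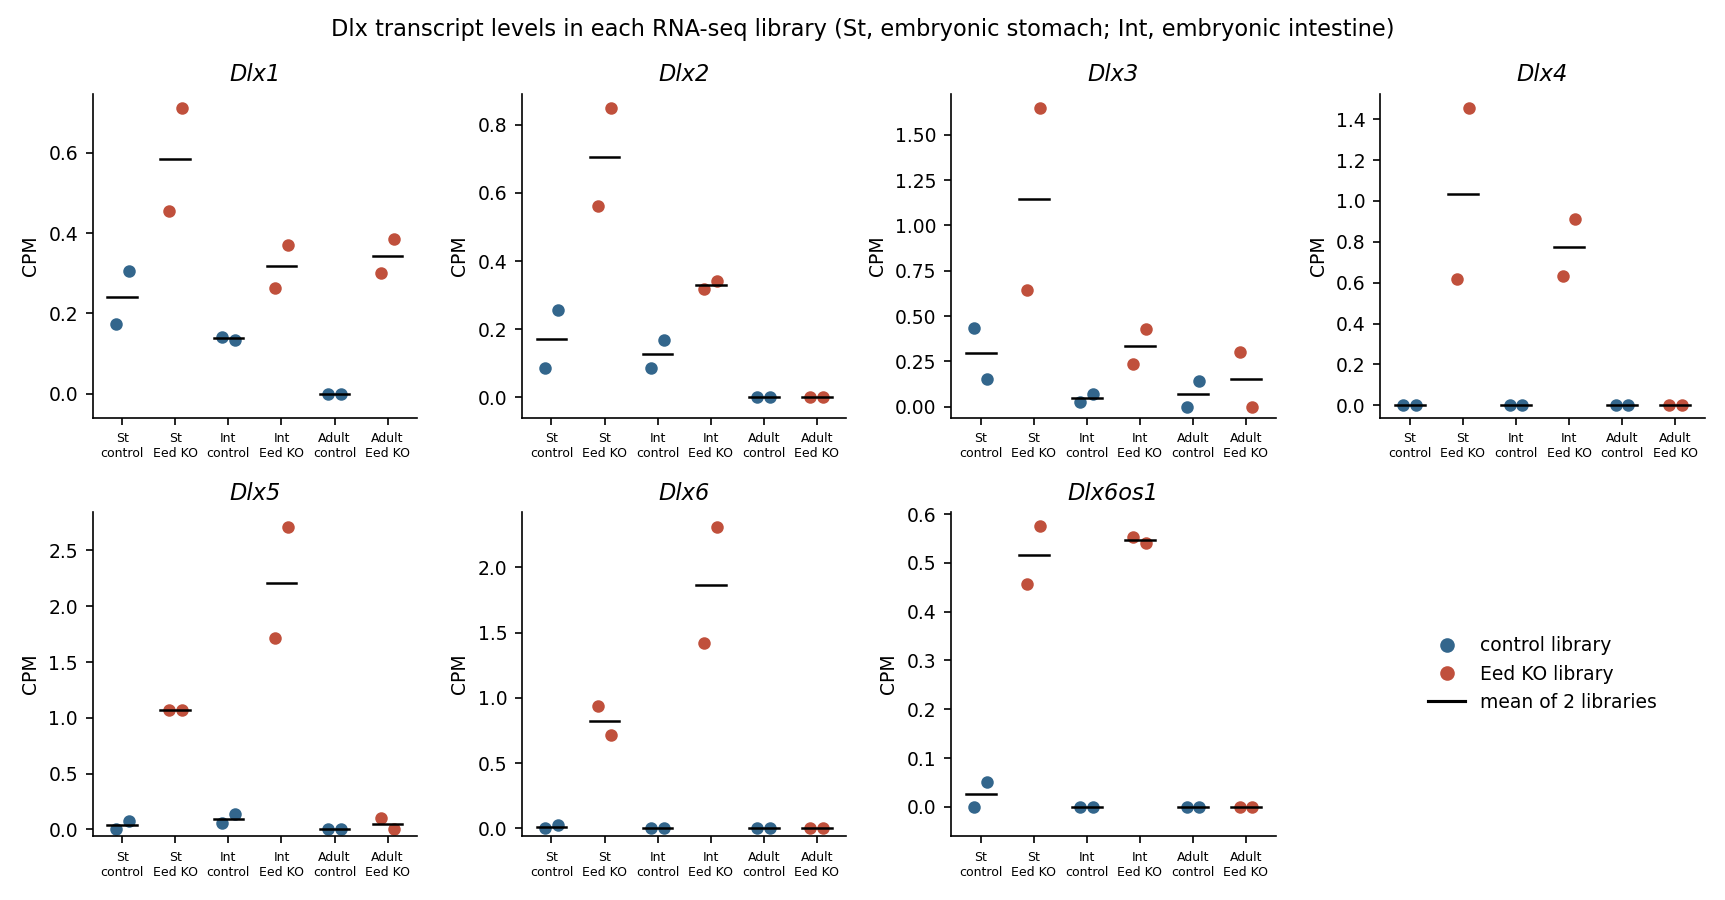
Each panel plots 1 Dlx gene, with the level in CPM on the y axis and the 6 groups of RNA-seq libraries on the x axis; points are libraries and the bar is the mean of 2. In the stomach (St) and in the intestine (Int) both Eed KO points of each gene lie above both control points, and no adult library has more than 5 counts of a gene.

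Dlx5 and Dlx6 sit on chromosome 6 of GRCm38 and are read toward each other. Dlx5 spans chr6:6877805-6882085 on the minus strand and Dlx6 spans chr6:6863334-6868568 on the plus strand. Both encode regulators of jaw, limb and bone development. Dlx6os1 spans chr6:6820189-6871633 on the minus strand, starts between the genes of the pair and runs across Dlx6. It is the non-coding transcript also known as Evf2.

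The RefSeq promoter table (GRCm38.p6) held promoters for 3 of the 7 members (Dlx1, Dlx2, Dlx6os1). The first Dlx6os1 sequence is the promoter of a RefSeq start 2100 bases inside the outermost start of the gene model, at chr6:6869484-6869783 on the minus strand, where the gene models place an exon of this non-coding gene. The next is a 300-base stretch at chr6:6872349-6872648, plus strand, inside a region of ATAC-seq peaks just before the outermost start of Dlx6os1. They are shown because this gene was called in both organs and both stretches hold letters that homeodomain proteins bind. Capitals mark TAATTA in both. In the region they also mark 2 matches of the TATA box letters, TATAAA, which overlap on opposite strands.

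Dlx6os1 promoter: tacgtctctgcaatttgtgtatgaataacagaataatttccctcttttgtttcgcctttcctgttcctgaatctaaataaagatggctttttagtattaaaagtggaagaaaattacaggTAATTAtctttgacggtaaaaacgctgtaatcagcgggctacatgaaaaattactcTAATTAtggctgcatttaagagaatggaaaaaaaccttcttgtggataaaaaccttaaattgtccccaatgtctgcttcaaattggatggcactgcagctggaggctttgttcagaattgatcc
region at the Dlx6os1 start: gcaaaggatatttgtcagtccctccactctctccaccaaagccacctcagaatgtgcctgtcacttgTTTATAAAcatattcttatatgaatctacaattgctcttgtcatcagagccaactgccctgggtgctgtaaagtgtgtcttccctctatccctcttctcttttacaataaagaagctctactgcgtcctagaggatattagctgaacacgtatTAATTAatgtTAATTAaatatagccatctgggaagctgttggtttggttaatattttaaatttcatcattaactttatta

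Each stretch holds 2 matches of TAATTA, searched on both strands. This motif is present in 5.29% of 32851 RefSeq promoters of 300 bases and in 5.72% of 162102 peak regions of 300 bases, and TATAAA in 13.6% and 16.1%. The Dlx6os1 promoter shown is 35.7% G and C, higher than 4.30% of promoters. The table holds a second one for this gene, not shown, at chr6:6861634-6861933, with 35.3% G and C, 1 match each of TAATTA and TAATTG and 2 of TATAAA. A match of letters does not show that a factor binds there.

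Dlx5 had 0 and 3 counts in control stomach and 40 and 39 in Eed KO stomach. Its intestine libraries had 2 and 4 counts in control against 65 and 95 in Eed KO. The Eed KO libraries of each organ stood apart from the controls, with the intestine higher than the stomach. Over control, Dlx5 was 26.3-fold higher in the stomach (95% exact counting interval 8.69 to 130) and 23.9-fold higher in the intestine (10.7 to 66.0). These intervals use counts pooled over the 2 libraries of a group and leave out the spread between libraries. Reads without molecular identifiers are not independent molecules, so the intervals can be too narrow for counting error as well. The edgeR log2 fold changes were 4.61 (SE 0.72, adjusted p 0.0106) and 4.53 (SE 0.62, adjusted p 0.0119).

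Dlx6 had 0 and 1 counts in control stomach and 35 and 26 in Eed KO stomach, with 0 in both control intestine libraries and 54 and 81 in Eed KO intestine. The control libraries were at or next to 0, and again the Eed KO intestine was highest. The ratio in the stomach was 61.0 (95% exact counting interval 10.5 to 2448). In the intestine the level was at least 40.3-fold higher, taking 3 counts over the control libraries as the limit that a count of 0 allows. The edgeR adjusted p was 0.00998 for the stomach and 0.00791 for the intestine, with log2 fold changes of 5.61 (SE 0.78) and 9.06 (SE 0.94). Where a control group is at 0 the fitted value depends on the prior count of the tool and is not a bound. Its SE is taken from that value and does not measure its error.

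Dlx6os1 had 0 and 2 counts in control stomach and 17 and 21 in Eed KO stomach, and 0 in both control intestine libraries against 21 and 19 in Eed KO intestine. Its Eed KO counts overlapped between the 2 organs, while those of Dlx5 and Dlx6 did not. No difference between the Eed KO organs was called for any of these genes. The ratio in the stomach was 19.0 (95% exact counting interval 4.91 to 163) and the level in the intestine was at least 11.9-fold higher. In edgeR the log2 fold change in the stomach was 4.09 (SE 0.75, adjusted p 0.0245), and the adjusted p in the intestine was 0.0265. Dlx6os1 and Dlx6 share 0 exonic bases in the gene models, so reads on Dlx6 exons are not counted for both. The embryonic libraries are directional, but the strand option used in counting them is not stated, so the strand of reads counted for this and the other antisense genes is not settled. Another antisense gene of this locus, Dlx6os2, shares 104 exonic bases with Dlx6 and had 1 count in all embryonic libraries together.

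Dlx3 and Dlx4 are read toward each other on chromosome 11. Dlx3, a regulator of skin, hair and bone, spans chr11:95120119-95125296 on the plus strand, and Dlx4 spans chr11:95140447-95146263 on the minus strand. The stretch shown comes from the middle of a peak region between the genes, chr11:95137224-95138620, that had peaks in control stomach and in both Eed KO organs but not in control intestine. The stretch itself lies in the peaks of the Eed KO lists, and the control stomach peak, chr11:95138090-95138464, does not reach it. It is given at chr11:95137773-95138072, plus strand, with TAATTG in capitals, a motif of Dlx and Msx proteins that 8.60% of the peak regions hold. Of the 25 peak regions around the pairs, each read over its middle 300 bases, it is the 1 that holds TAATTG (4.00%), and 2 hold TAATTA.

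region between Dlx3 and Dlx4: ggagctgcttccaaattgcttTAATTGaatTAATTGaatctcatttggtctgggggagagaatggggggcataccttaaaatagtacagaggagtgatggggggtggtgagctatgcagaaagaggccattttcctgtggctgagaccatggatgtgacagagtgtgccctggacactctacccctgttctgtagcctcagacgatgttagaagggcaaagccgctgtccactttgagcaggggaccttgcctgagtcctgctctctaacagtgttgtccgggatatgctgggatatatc

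Dlx4 was the member most completely absent from controls. It had 0 counts in all 4 control libraries, 23 and 53 in Eed KO stomach, and 24 and 32 in Eed KO intestine. A count of 0 in a group allows up to 0.0407 CPM in control stomach and 0.0459 CPM in control intestine. The level was at least 25.3-fold higher in the stomach, and at least 16.7-fold higher in intestine, with edgeR adjusted p values of 0.0176 and 0.0452.

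Dlx3 had 15 and 6 counts in control stomach and 24 and 60 in Eed KO stomach. Its intestine libraries had 1 and 2 counts in control against 9 and 15 in Eed KO. The groups did not overlap, but the Eed KO stomach libraries differed widely from each other. Dlx3 was 4.00-fold higher in the stomach (95% exact counting interval 2.46 to 6.79) and 7.16-fold higher in the intestine (2.17 to 37.2). It was not called, with edgeR log2 fold changes of 1.97 (SE 0.64, adjusted p 0.116) and 2.75 (SE 1.00, adjusted p 0.249).

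Dlx1 and Dlx2, a pair on chromosome 2, act in the forebrain, where they promote GABAergic fate, and in the upper jaw. Dlx1 spans chr2:71528113-71533981 on the plus strand and Dlx2 spans chr2:71543408-71546754 on the minus strand. The 250 bases just before the Dlx2 start, chr2:71546755-71547004, minus strand, are shown because a peak covered them in all 4 ATAC-seq lists. Capitals mark its 24 CG dinucleotides, the feature of a CpG island promoter.

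Dlx2 promoter: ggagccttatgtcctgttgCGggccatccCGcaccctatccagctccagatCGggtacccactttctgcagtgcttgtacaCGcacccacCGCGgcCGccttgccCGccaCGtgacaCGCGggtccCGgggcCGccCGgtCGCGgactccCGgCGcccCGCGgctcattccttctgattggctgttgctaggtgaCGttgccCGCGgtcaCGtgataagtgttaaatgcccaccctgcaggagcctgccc

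The full RefSeq promoter of Dlx2 is 66.3% G and C, higher than 84.4% of promoters, with an observed over expected CpG ratio of 0.898, higher than 87.1%. The Dlx1 promoter is 69.3% G and C, higher than 89.5%. Neither holds any of the 3 motifs (the 2 homeodomain motifs and the TATA box), which says only that these letters are not in the window.

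Dlx1 had 6 and 12 counts in control stomach and 17 and 26 in Eed KO stomach. In the intestine it had 5 and 4 counts in control against 10 and 13 in Eed KO. Dlx2 had 3 and 10 counts in control stomach, 21 and 31 in Eed KO stomach, 3 and 5 in control intestine, and 12 and 12 in Eed KO intestine. The groups did not overlap within an organ, and the controls were above 0 in every library. The fold over control was 2.39 for Dlx1 (95% exact counting interval 1.35 to 4.40) and 4.00 for Dlx2 (2.15 to 8.01) in the stomach, and 2.29 (1.02 to 5.62) and 2.69 (1.17 to 6.92) in the intestine. Neither gene was called, with edgeR adjusted p values of 0.146 and 0.0667 in the stomach and 0.396 and 0.392 in the intestine. Without a filter on low counts Dlx2 and Dlx3 were called in the stomach, where 6 members then passed. A fit with same-numbered libraries as a block also called Dlx2 there, though the labels do not tie the numbers to embryos. The antisense gene Dlx1as, which shares 335 exonic bases with Dlx1, had 0 counts in all 8 embryonic libraries.

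**Figure D2:**
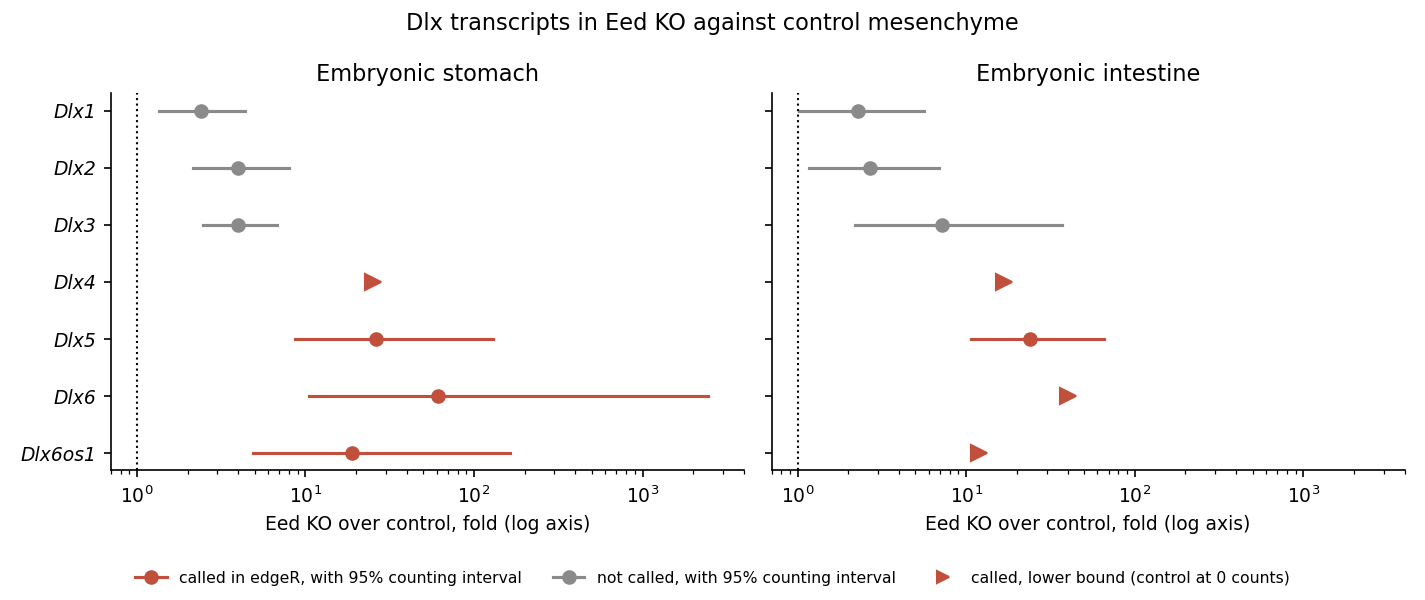
The fold of Eed KO over control is plotted on a log axis for each Dlx gene in embryonic stomach (left) and intestine (right), with 95% exact counting intervals as lines and triangles as lower bounds where control libraries had 0 counts. Dlx4, Dlx5, Dlx6 and Dlx6os1, in red, were called in both organs, and Dlx1, Dlx2 and Dlx3, in grey, had smaller folds and were not called.

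Levels of different genes were compared as TPM, a scale that divides counts by exonic length. In Eed KO stomach Dlx5 was highest at 2.41 ± 0.06 TPM (SD, n = 2). Dlx3 (1.42 ± 0.91), Dlx6 (1.11 ± 0.18), Dlx4 (1.02 ± 0.61) and Dlx2 (0.797 ± 0.250) followed, and each overlapped the next in its libraries. Dlx1 (0.349 ± 0.118) and Dlx6os1 (0.344 ± 0.066) were lowest and overlapped each other.

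In Eed KO intestine the order was Dlx5 at 4.74 ± 1.67 TPM (SD, n = 2), Dlx6 at 2.40 ± 0.89 and Dlx4 at 0.721 ± 0.209, with no overlap between neighbours. Dlx3 (0.390 ± 0.171), Dlx2 (0.350 ± 0.032) and Dlx6os1 (0.345 ± 0.007) came next and each overlapped the next, above Dlx1 at 0.179 ± 0.049. Even the highest level was low for the genome. Dlx5 in Eed KO lay above 21.4% of tested genes (stomach) and 31.3% (intestine), where the median tested gene had 15.8 and 14.8 TPM.

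In control stomach the highest mean was Dlx3 at 0.343 ± 0.233 TPM (SD, n = 2), and all neighbours in the order overlapped. In control intestine it was Dlx5 at 0.202 ± 0.121 TPM, which overlapped Dlx2 at 0.133 ± 0.065. The summed TPM of the 7 members was 0.773 ± 0.106 in control and 7.46 ± 1.83 in Eed KO stomach, a ratio of 9.65. In the intestine it was 0.467 ± 0.219 and 9.13 ± 3.02, a ratio of 19.6. These sums were not tested, and they include Dlx1, Dlx2 and Dlx3, which were not called.

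The intestine and the stomach were then compared within each genotype, with positive values for higher in the intestine. In control embryos edgeR called 0 of the 7 members, with 1 at an unadjusted p under 0.05 (Dlx3) and 0 by DESeq2, against 5.07% of genes called in either direction. In Eed KO embryos edgeR called 0, with 3 at an unadjusted p under 0.05 and 0 by DESeq2, against 4.40% of genes. Those 3 went in different directions. Dlx3 had a log2 fold change of -1.78 (SE 0.63, adjusted p 0.166), while Dlx5 had 1.04 (SE 0.44, adjusted p 0.248) and Dlx6 had 1.17 (SE 0.41, adjusted p 0.176) in edgeR.

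A test of whether the Eed KO effect differed between the organs, at an edgeR adjusted p under 0.2, called 0 members, with 0 at an unadjusted p under 0.05 and 0 by DESeq2, against 0.462% of genes. For Dlx5 the difference was -0.08 on the log2 scale (SE 0.70) and for Dlx2 it was -0.60 (SE 0.87). These SE values are large beside the differences, so equal effects in the organs are not shown. Dlx4, Dlx6 and Dlx6os1 have control groups at or near 0 counts, so no size is given for them.

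In adult intestine the family was at or near 0, and no member passed the filter on low counts. Dlx1 had 0 counts in both control libraries and 3 and 5 in the Eed KO libraries, at least 3.25-fold higher, and this was not tested under the filter. Fitted without the filter, its edgeR adjusted p was 0.213. Dlx3 had 0 and 2 counts in control against 3 and 0 in Eed KO, and Dlx5 had 1 count in 1 Eed KO library. Dlx2, Dlx4, Dlx6 and Dlx6os1 had 0 counts in all 4 adult libraries, which allows up to 0.107 CPM in the control group and 0.131 CPM in Eed KO. Dlx1as, the antisense gene without embryonic counts, had 5 and 4 counts in adult control and 1 and 0 in adult Eed KO, a ratio of 0.136 (95% exact counting interval 0.00309 to 0.978). The adult counts are unstranded and Dlx1as overlaps Dlx1, so the strand of these reads is not known.

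Expression differed widely between the adult groups. Since no member was tested, edgeR called 0, with 0 at an unadjusted p under 0.05 and 0 by DESeq2, while 19.6% of the 15039 genes tested were called in either direction. Eed had 406 and 477 counts in adult control and 256 and 324 in adult Eed KO, and with a log2 fold change of -0.32 (SE 0.21, edgeR adjusted p 0.317) it was not called lower. Both adult Eed KO libraries lay below both controls for Eed (25.6 and 25.0 CPM against 29.7 and 33.4). Under library totals without TMM its log2 fold change was -0.80 (edgeR adjusted p 0.0261), short of the threshold on size. Since Eed was lower but not called, the genotype of each adult library rests on its label, which the counts of Eed do not settle. All 4 macrophage and leukocyte markers present in the files (Ptprc, Cd68, Csf1r, Lyz2) were called higher, and their summed level went from 499 and 592 CPM in control to 11290 and 9458 CPM in Eed KO, with Lyz2 most abundant. Of the gut mesenchyme genes 4 of 7 tested were called lower (Foxf2, Pdgfra, Col1a1, Col3a1), where the Foxf2 call was lost without adult control replicate 1 (adjusted p 0.0617), and the summed level of the 9 went from 8895 and 9187 CPM to 3731 and 2630 CPM. The part of these changes in the adult Dlx counts was not tested.

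ATAC-seq peaks mark chromatin open to a transposase. A promoter peak was counted where a listed peak overlapped 1000 bp on either side of the outermost start in the gene models. All 7 members had one in control stomach, Eed KO stomach and Eed KO intestine, and 5 had one in control intestine, all but Dlx1 and Dlx6os1. In the same lists 46.3%, 47.4%, 47.5% and, for control intestine, 45.4% of 41670 genes had a promoter peak, and between 88.0% and 89.1% of the genes tested. Peaks were therefore listed in controls at Dlx2, Dlx3, Dlx4, Dlx5 and Dlx6, whose transcripts were scarce or absent there. Each list pools its replicates, so peak values carry no replicate error and no test.

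Fold enrichment over the local background is an average over each peak, and the peaks differ in width between lists. At Dlx5 the peak spanned 2020 bp in control and 4254 bp in Eed KO stomach, and 1612 bp and 3574 bp in the intestine. Each control list has a further peak that overlaps the Eed KO peak, so covered length in this region went from 3030 to 4254 bp and from 2163 to 3574 bp. The fold enrichments at Dlx5 are therefore not a like-for-like comparison. They were 4.20 in control stomach and 3.40 in Eed KO stomach, and 3.99 and 3.26 in control and Eed KO intestine. Dlx6 had 4.33 and 4.20 in the stomach and 3.96 and 4.15 in the intestine. Dlx4 had 3.33 and 3.18 in the stomach and 4.35 and 3.49 in the intestine, where its peak went from 1269 to 2015 bp. Of these 6 pairs of values, 5 were lower in Eed KO and Dlx6 in the intestine was higher. The -log10 q values rose in the stomach, from 14.8 to 17.2 at Dlx5, from 16.3 to 25.9 at Dlx6 and from 7.92 to 12.8 at Dlx4. In the intestine they rose at Dlx6, from 15.7 to 20.8, and were lower in Eed KO at Dlx5 (15.1 against 10.7) and Dlx4 (15.1 against 11.4).

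Values at the other starts follow. Dlx3 had a fold enrichment of 3.16 and 3.12 in control and Eed KO stomach, and 3.26 and 2.79 in the intestine. Dlx2 had 3.23 and 3.07 in the stomach and 3.30 and 2.92 in the intestine. The Dlx1 peak, 5.94 in control stomach and 4.37 in Eed KO stomach, only touched the edge of its window, and at the RefSeq start 1332 bases further in Dlx1 had a peak in all 4 lists, with 4.94 in control intestine and 3.87 in Eed KO intestine. Dlx6os1 had a weak peak in control stomach (2.54, -log10 q 1.68), a stronger one in Eed KO stomach (3.15, -log10 q 7.91), none in control intestine and one of 2.88 in Eed KO intestine (-log10 q 4.41). Peaks covered 44.7% of its window in control stomach and 29.3% in Eed KO stomach, and 0% and 100% in the intestine.

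**Figure D3:**
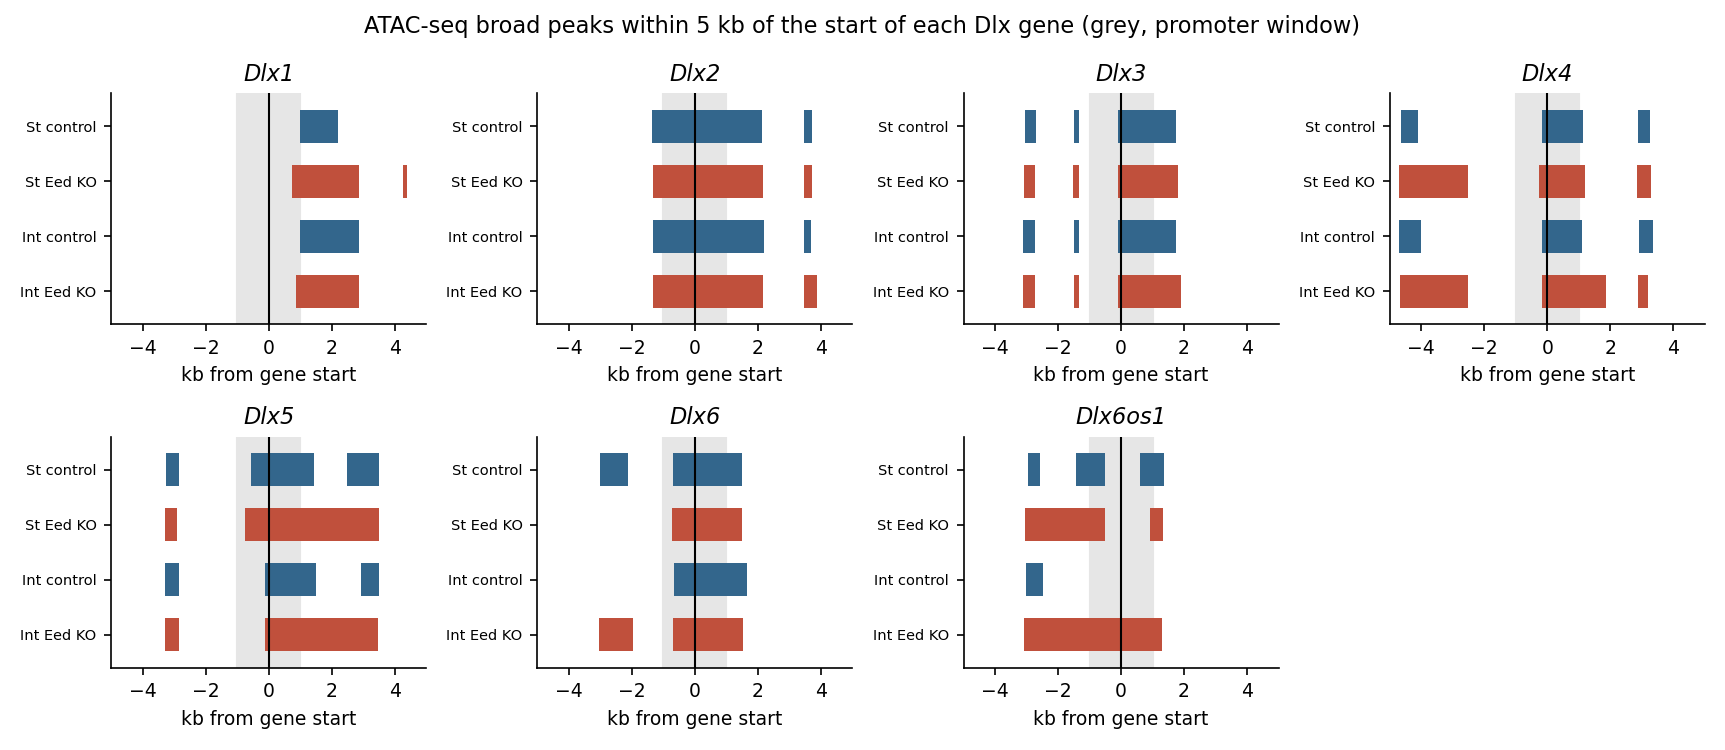
Bars are ATAC-seq broad peaks in each of the 4 lists, placed by their distance in kb from the start of each Dlx gene along its own direction of transcription, with the promoter window in grey. Peaks at Dlx2, Dlx3, Dlx4, Dlx5 and Dlx6 appear in control and Eed KO lists alike, while at Dlx6os1 the control intestine list has none in the window and the Eed KO intestine peak spans it.

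What did grow around the genes was the covered length. In a window from 10 kb before to 10 kb after the Dlx5 and Dlx6 pair, peaks covered 8556 bp in control stomach and 11291 bp in Eed KO stomach, and 5524 bp and 13865 bp in the intestine. As shares of the window these are 22.1% and 29.1%, and 14.3% and 35.8%. The mean fold enrichment over these peaks was 3.11 and 3.43 for the stomach lists and 3.62 and 3.21 for the intestine lists. So the pair gained length in both organs without a common change in height.

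Around Dlx3 and Dlx4 the covered share went from 12.2% to 17.9% in the stomach and from 11.1% to 19.5% in the intestine, with mean fold enrichments of 3.72 and 4.11, and 4.12 and 3.96. Around Dlx1 and Dlx2 it went from 16.9% to 22.1% and from 16.1% to 24.4%, with mean fold enrichments of 3.51 and 3.09, and 3.48 and 2.98. The Eed KO lists were longer over the whole genome too, with 87.7 Mb covered against 80.4 Mb in the stomach and 86.3 Mb against 73.8 Mb in the intestine.

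For scale, the same window was drawn around each of 16191 tested genes. The median gain in covered share was 0.294 percentage points for stomach lists and 0.416 for intestine lists. The gains at the Dlx pairs were 5.20, 5.71 and 7.06 points in the stomach, for Dlx1 with Dlx2, Dlx3 with Dlx4 and Dlx5 with Dlx6, above 96.0%, 96.9% and 98.4% of gene windows. In the intestine they were 8.35, 8.40 and 21.5 points, above 99.1%, 99.1% and 99.99% of gene windows. Gene windows near each other overlap, and these shares are a description with no test.

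**Figure D4:**
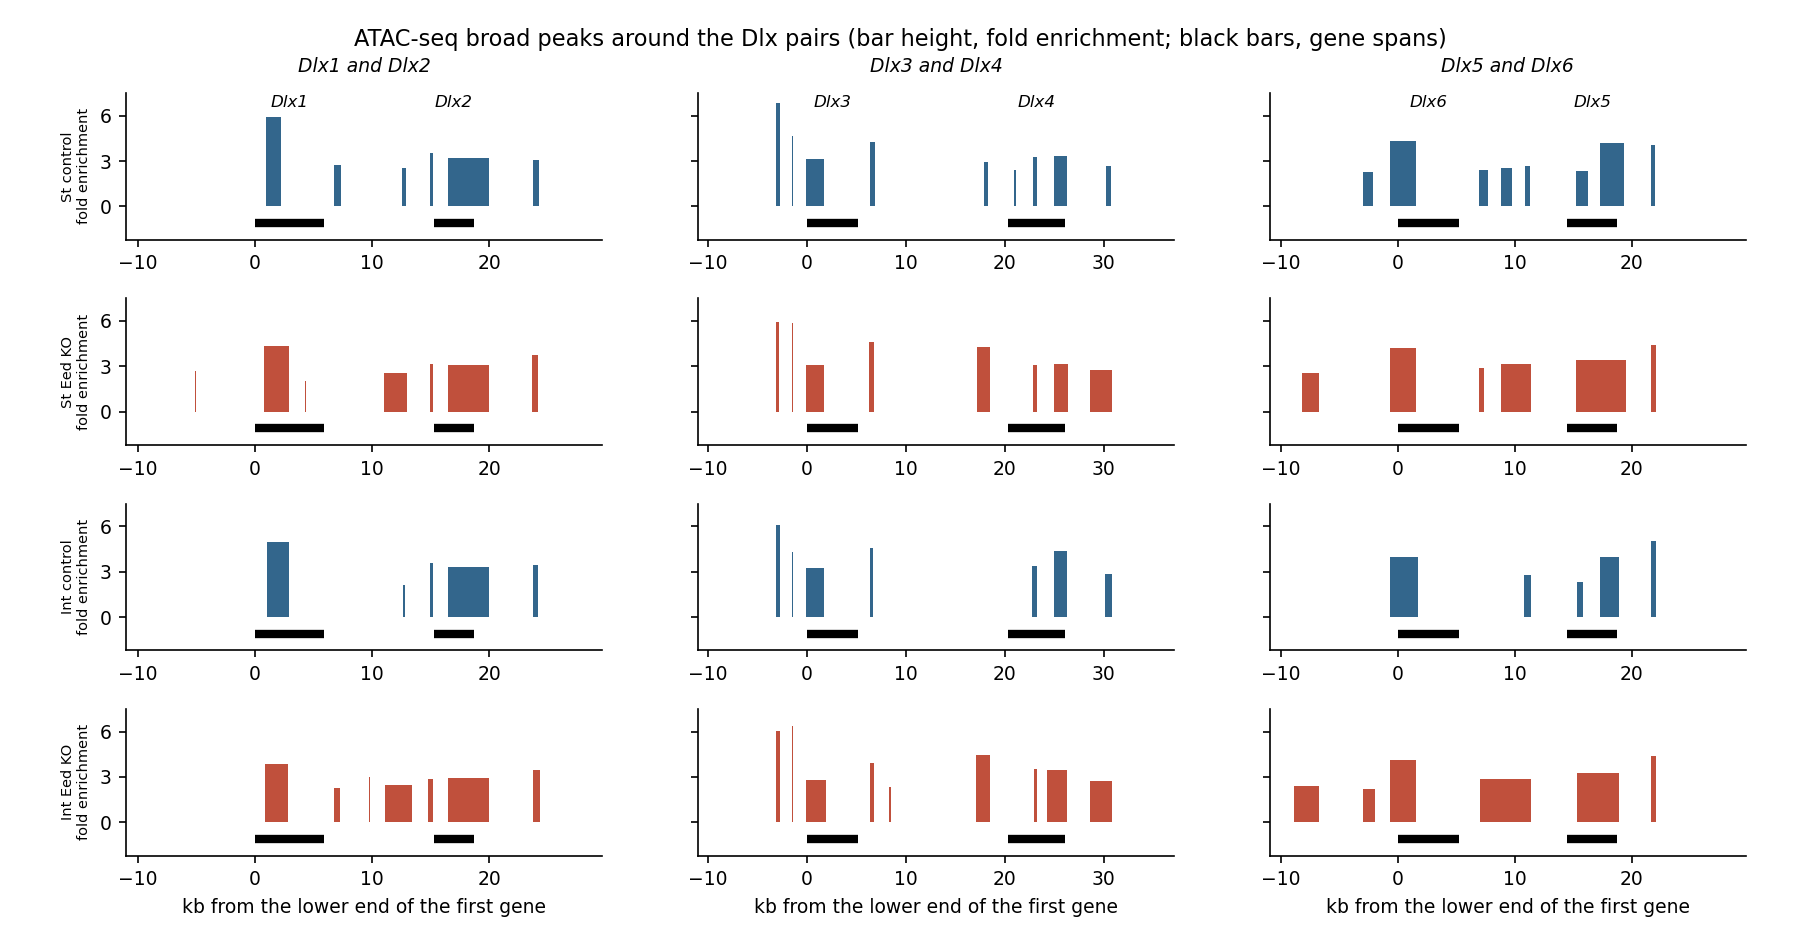
Each bar is an ATAC-seq broad peak around a Dlx pair, with fold enrichment as its height and distance in kb from the lower end of the first gene on the x axis, and black bars mark the genes. Peaks widen in the Eed KO lists between Dlx1 and Dlx2, between and beyond Dlx3 and Dlx4, and between Dlx6 and Dlx5, at fold enrichments mostly under 5.

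Peaks that touch in any list were merged, which gave 25 regions around the 3 pairs. Of these, 16 were in all 4 lists (64.0%, against 46.0% of 162113 regions genome-wide), and 5 were only in Eed KO lists (20.0%, against 19.8%). A region within a Dlx6os1 intron, chr6:6854456-6856586, was in both Eed KO lists and in no control list, with fold enrichments of 2.54 and 2.40. Its peaks were weak, with -log10 q of 2.64 in Eed KO stomach and 1.56 in Eed KO intestine, where the list medians were 5.53 and 4.95. Regions in both Eed KO lists and in no control list made up 4.00% of the pair regions, a share that rests on 1 region, and 4.18% genome-wide. Regions only in Eed KO lists made up 33.3% at Dlx1 and Dlx2, 10.0% at Dlx3 and Dlx4 and 16.7% at Dlx5 and Dlx6. These shares rest on few regions and were not tested.

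Several regions were longer in the Eed KO lists than in the control lists. The region from chr6:6870280 to 6874716, which holds the stretch printed for the Dlx6os1 start, had 2051 bp covered in control stomach, 2980 bp in Eed KO stomach, 557 bp in control intestine and 4394 bp in Eed KO intestine. Between Dlx1 and Dlx2, chr2:71539152-71541543 went from 380 to 1921 bp in the stomach and from 186 to 2363 bp in the intestine. The region between Dlx3 and Dlx4 whose TAATTG sequence is printed went from 375 bp with a fold enrichment of 2.95 to 1291 bp with 4.28 in the stomach. In the intestine it was absent in control and covered 1386 bp with a fold enrichment of 4.43 in Eed KO. It lies 7643 bp from the Dlx4 start.

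Genes around the pairs were read as well. Within 250 kb, 4 genes near Dlx1 and Dlx2, 11 near Dlx3 and Dlx4 and 1 near Dlx5 and Dlx6 were tested in embryos. Of these, edgeR called 1 in the stomach (6.25%, against 5.65% of all genes tested), near Dlx4, with 3 near Dlx3 and Dlx4 at an unadjusted p under 0.05 and 0 near the other pairs. For the intestine it called 0, with 1 at an unadjusted p under 0.05 and 1 by DESeq2, against 2.61% of all genes. The gene called was A730090H04Rik, a non-coding gene antisense to Dlx4 that shares 79 exonic bases with it, with a mean of 0.0290 CPM in control against 1.11 CPM in Eed KO stomach (log2 fold change 5.18, SE 0.72, edgeR adjusted p 0.00996). Its call was lost without control stomach replicate 2 or Eed KO stomach replicate 2, where the adjusted p was at most 0.0517. In the intestine it averaged 0 CPM in control against 0.303 CPM in Eed KO, a call by DESeq2 but not by edgeR (adjusted p 0.0579). Without a stated strand option, reads of Dlx4 in the shared bases are not told apart from reads of this gene.

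The tested genes outside the family whose log2 CPM over the 8 embryonic libraries was most like that of a member were found for the 4 members that reached 1 CPM in a group. For Dlx5 they were H2-Q7 (Pearson r 0.996), Pou3f4 (0.983) and Ulbp1 (0.982), and the same 3 led for Dlx6 (0.986, 0.986 and 0.980). For Dlx4 they were Lhfpl4 (0.995), Hottip (0.992) and Runx3 (0.990), and for Dlx3 they were Eno4 (0.981), Khnyn (0.975) and Adamtsl3 (0.973). These values are given as a description with no test.

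Signals and factors known to act upstream of Dlx genes were read from a list of 15, of which 13 were tested. In the stomach 4 were called, all higher (Edn1, Fgf8, Tfap2a, Tfap2b), and in the intestine 2, both higher (Tfap2a, Tfap2b). DESeq2 called 5 and 3, with Wnt7b added as lower in the stomach (242 counts in control against 93 in Eed KO) and Edn1 as higher in the intestine. The median log2 fold change of the list was 0.84 and 0.16, against 0.00 and 0.01 over all genes. These list medians and those below are the same with genes at 0 in control set to their lower bound. Tfap2a, a factor of neural crest and facial mesenchyme, went from 0.0817 ± 0.0074 CPM (SD, n = 2) to 5.87 ± 0.58 in the stomach and from 0.123 ± 0.016 to 2.36 ± 1.02 in the intestine. Tfap2b had 0 counts in every control embryo library and was at least 119-fold higher in the stomach and at least 37.9-fold higher in the intestine.

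Endothelin 1, the ligand that switches on Dlx5 and Dlx6 in the lower jaw, rose from 7 counts to 59 over the stomach libraries (Edn1, log2 fold change 3.03, edgeR adjusted p 0.0188). In the intestine Edn1 went from 0.342 ± 0.087 to 1.53 ± 0.75 CPM and was not called (adjusted p 0.0502). The call of Edn1 was lost without any 1 of the 4 stomach libraries, with adjusted p values up to 0.136, and that of Fgf8 without either control library or Eed KO replicate 2, up to 0.142. In the intestine the calls of Tfap2a and Tfap2b were lost without either control library, with adjusted p values up to 0.0686 and 0.167. In the stomach both held in all 4 subsets.

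Among 7 proteins that partner or compete with Dlx proteins, Msx1 and Msx2 were called higher in both organs, by edgeR and by DESeq2. MSX proteins bind the same TAATTG letters and repress where DLX proteins activate. Msx1 went from 1.74 ± 0.29 CPM (SD, n = 2) to 3.76 ± 0.35 in the stomach and from 0.373 ± 0.091 to 1.55 ± 0.09 in the intestine, and Msx2 from 0.180 ± 0.074 to 1.14 ± 0.06 in the stomach. In the intestine Msx2 rose from 2 counts to 67 (95% exact counting interval of the ratio 7.98 to 253). In the stomach both calls were lost without any 1 of the 4 libraries, with adjusted p values up to 0.153 for Msx2 and higher for Msx1. In the intestine the Msx1 call was lost without either control library (up to 0.139) and the Msx2 call without control replicate 1 (0.106). The median log2 fold change of the 7 was -0.13 and -0.02.

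Among known Dlx target genes, Hand1, Alx4 and Esx1 were called higher in the stomach and Pitx1 in the intestine. DESeq2 called these too, and also Alx4, Esx1 and Runx2 in intestine libraries. Hand1, which acts downstream of Dlx5 and Dlx6 in the lower jaw, rose from 1.11 ± 1.17 CPM (SD, n = 2) to 8.04 ± 3.67 CPM in the stomach, while in the intestine it was already at 91.5 ± 2.5 CPM in control, with 104 ± 5 CPM in Eed KO (not called). Esx1 had 0 counts in every control embryo library and was at least 29.3-fold higher in Eed KO stomach.

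The stomach call of Alx4 held without any 1 library. The Esx1 call was lost without any 1 of the 4 stomach libraries (adjusted p up to 0.134) and the Hand1 call without control replicate 2 or Eed KO replicate 2 (up to 0.140). In the intestine the Pitx1 call was lost without control replicate 1 or either Eed KO library. The GABA genes Gad1, Gad2 and Slc32a1, further targets, had 0 counts in all control embryo libraries and at most 10 counts over a group in Eed KO.

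Markers of cell types in which Dlx genes are usually active were counted in the same libraries. Of markers of branchial arch and limb mesenchyme, Prrx1 went from 27.9 ± 7.4 CPM (SD, n = 2) to 186 ± 7 CPM in the stomach and from 1.21 ± 0.43 to 18.2 ± 2.2 CPM in the intestine. Tbx5 had 0 counts in control intestine and was at least 74.0-fold higher in Eed KO. In the stomach its log2 fold change was 6.04 (edgeR adjusted p 0.00101). Prrx1 and Tbx5 kept their calls in both organs without any 1 library. Msx1, Msx2 and Alx4, described above, are markers of the same cells.

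Of markers of GABAergic forebrain neurons, Lhx6 was called higher in both organs, from 0.311 ± 0.029 CPM (SD, n = 2) to 11.2 ± 1.5 CPM in the stomach and from 0.286 ± 0.166 to 2.44 ± 0.39 CPM in the intestine. The defining genes Gad1, Gad2 and Slc32a1 stayed at or near 0. The Lhx6 call in the intestine was lost without control replicate 1 (adjusted p 0.0528). Of 5 tested skeletogenic markers edgeR called 0 in the stomach, with 3 at an unadjusted p under 0.05 and 1 by DESeq2 (Col2a1). In the intestine it called Sox9 and Col2a1 higher, and DESeq2 called 4. The summed skeletogenic level was 42.7 and 37.4 CPM in control against 65.9 and 79.3 CPM in Eed KO stomach, and 8.40 and 7.40 CPM and 17.8 and 34.1 CPM in the intestine, while the bone markers Ibsp and Bglap had at most 17 counts in a group. The Col2a1 call was lost without either control intestine library or Eed KO replicate 2 (up to 0.285) and the Sox9 call without control replicate 1 (0.0686).

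Endothelial markers rose in part, with Pecam1, Cdh5 and Emcn called in the stomach and Cdh5 in the intestine, of 5 tested. DESeq2 called 3 in each organ, in the intestine Cdh5, Kdr and Pecam1, and 4 in each were at an unadjusted p under 0.05. Their summed level was 15.2 and 14.3 CPM in control against 23.7 and 43.8 CPM in Eed KO stomach, and 14.9 and 19.1 CPM and 43.3 and 44.2 CPM in the intestine, with Kdr most abundant. Calls lost without 1 library were those of Pecam1 in the stomach (either control, up to 0.0766), Emcn (control replicate 2 or Eed KO replicate 2, up to 0.0661) and Cdh5 in the intestine (either control, up to 0.110). The part of such cells in the Dlx counts was not tested.

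For the other cell types edgeR made few calls. It called 0 of 8 tested markers of enteric neural crest and neurons in both organs, with 1 in the stomach and 2 in the intestine at an unadjusted p under 0.05 and 0 by DESeq2. Of 7 epithelial markers it called 0 in both, with 4 and 3 at an unadjusted p under 0.05, and DESeq2 called 2 in each organ (Cdh1, Cldn7). Of 4 mesothelial markers it called 0, with 2 and 1 at an unadjusted p under 0.05 and 0 by DESeq2, and of 5 smooth muscle markers 0, with 3 and 2 at that p and 0 by DESeq2. Of 3 erythroid markers edgeR called 0, with 2 and 1 at an unadjusted p under 0.05, and DESeq2 called 1 in the stomach (Hbb-bs). Macrophage and leukocyte markers did not move together in the stomach. Lyz2 was called lower relative to most genes (higher under spike-in totals), while Csf1r had 10 counts in control against 68 in Eed KO, a call by DESeq2 but not by edgeR (adjusted p 0.0626), and the median log2 fold change of the 3 tested was 0.98. Of these 3, edgeR called 0 in the intestine, with 1 at an unadjusted p under 0.05 and 0 by DESeq2. Of 2 skeletal muscle markers tested, Myod1 was called higher in the stomach, where Actc1 averaged 7.81 CPM in control against 5.21 CPM in Eed KO. For the intestine edgeR called 0 of the 2, with 1 at an unadjusted p under 0.05 and 0 by DESeq2. The call of Lyz2 was lost without control replicate 1 or either Eed KO library (adjusted p up to 0.127) and that of Myod1 without control replicate 2 (0.0709). Epithelial markers summed to between 34.2 and 67.9 CPM in every embryonic library, and those of enteric neural crest to between 164 and 356 CPM with Hand2 or Ednrb most abundant.

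Of 10 PRC2 subunits (Eed, Ezh1, Ezh2, Suz12, Jarid2, Aebp2, Mtf2, Phf19, Rbbp4, Rbbp7), Eed was called lower in both embryonic organs and no other subunit was, by edgeR or by DESeq2. Ezh2, the usual catalytic subunit, had 121 ± 6 CPM (SD, n = 2) in control and 100 ± 5 in Eed KO stomach, and 122 ± 2 and 115 ± 5 in the intestine. In the adult comparison the Dlx lists gave 1 upstream gene higher (Mef2c) and 4 lower (Ednra, Bmp4, Bmp7, Fgf10) of 7 tested, and 1 partner lower (Maged1, lost without adult Eed KO replicate 2, where its fold change was under the threshold) of 6. Of 4 targets edgeR called 0, with 3 at an unadjusted p under 0.05 and 0 by DESeq2. These adult directions rest on the library labels. The paper gives Bmp4 and Bmp7 as upregulated after Eed loss in the adult, the reverse of the direction counted here.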

How the data were processed

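RNA-seq gene counts of 8 embryonic and 4 adult libraries and 4 ATAC-seq peak lists were used. The authors made the counts by trimming reads (Trimmomatic 0.32), aligning them to GRCm38 (STAR 2.5.1b) and counting reads per gene with featureCounts, with no scaling. The authors called broad ATAC-seq peaks with MACS2 2.1.2 on pooled replicates, and the deposited peak lists give fold enrichment over the local background and -log10 q values. Per the file headers the adult files also give the exonic length of each gene in bases, used for TPM. The adult counts are unstranded.

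Counts were tested with edgeR 4.0.16 (TMM, filterByExpr, quasi-likelihood F-test) in R 4.3.3, with Benjamini-Hochberg correction, and with DESeq2 1.42.0 as an alternative. Embryonic libraries shared 1 fit with 4 group means, adult libraries another. The functions were tested on simulated data. A count of 0 in a group was bounded by 3 counts over its 2 libraries. Depth is given in the report.

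Genes named are the 7 members, other Dlx symbols, called genes within 250 kb of a pair or on the gene lists, Eed, and the 3 genes most like each member with at least 1 CPM in an embryonic group. Genes added by DESeq2 alone, and Actc1, were named after their values were seen. The alternatives for named genes outside the family, and promoter peaks at RefSeq starts, were chosen after seeing the data. The members and lists were chosen with earlier results of these data known. Results of some listed genes, and counts and sums of the lists that hold them, are not reported here.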

Additional observations from a re-analysis of the deposited data

Results flagged for a closer look

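The Eed KO effect on Sox9, a named gene outside the family, was called as different between the organs at the looser threshold. Its mean level was 11.4 CPM in control stomach, 14.3 CPM in Eed KO stomach, 1.08 CPM in control intestine and 4.52 CPM in Eed KO intestine. The difference in log2 fold change was 1.74 (intestine minus stomach, SE 0.29, edgeR adjusted p 0.108, threshold 0.2), among 121 named genes tested. The call held in 2 of 8 fits that leave out 1 library, those without Eed KO intestine replicate 1 or replicate 2. Over the alternatives the adjusted p ran from 0.000535 to 0.926.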

How the results depend on the processing

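Counts of called Dlx genes moved with scaling and with the libraries used. In the stomach (4 by the main settings) 6 were called without a filter on low counts, 7 under spike-in totals, 0 with 1 spike-in factor, and 1 to 3 when 1 library was left out. In the intestine (4) the numbers were 7 under spike-in totals, 1 with the factor and 0 to 2 with 1 library left out. Between organs, and for the organ difference, the count was 0 under every alternative run. In the adult no member passed the filter, so 0 there says nothing about stability.

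For all genes called, the stomach (916) had 15438 under spike-in totals, 414 with the factor and 344 to 650 with 1 library left out. The intestine (423) had 685 by DESeq2, 800 without a filter, 13688, 227, 244 with only the 4 libraries compared, and 74 to 363. Control organs (822) had 155 under spike-in totals and 370 to 500. Eed KO organs (714) had 115, 397 with only the 4 libraries compared, and 304 to 528. The organ difference of the Eed KO effect (75) had 207 by DESeq2, 237 without a filter, 20 under spike-in totals, 165 with the factor and 27 to 97. Spike-in totals move the median of all genes, as given in the report, and the causes of the other changes were not tested.

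Same-numbered libraries were also fitted as a replicate block. The pairing check gave correlations of library deviations of 0.265 between control organs, 0.628 between Eed KO organs and 0.0470 to 0.151 between genotypes. The labels do not tie the numbers to embryos, so the block was not used elsewhere, and the organs of a genotype are not shown to be independent. The block called 5 members in the stomach, with Dlx2 added, and 4 in the intestine. It called 0 members between organs, with 1005 genes in control and 924 in Eed KO, and 187 genes for the organ difference.

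Some directions reversed. Under spike-in totals Eed in the stomach became 0.14, Lyz2 in the stomach 1.36 and Dlx6os1 between Eed KO organs -0.23. With 1 library left out, Dlx2 between control organs ran from -1.03 to 0.49, Dlx4 between Eed KO organs from -0.91 to 0.32, Dlx6os1 there from -0.070 to 0.27, and the organ difference for Dlx1 from -0.55 to 0.28, with 0.17 under the factor. Of 302 member fold changes under an alternative, 258 kept direction and side of the threshold, 27 fell below it, 9 rose past it and 8 reversed. For other named genes 567 of 665 kept both, 96 fell below and 2 reversed. Promoter-peak counts stayed within 1.5 times.

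Low counts limit the controls, since a few counts decide each fold. With 2 libraries per group, 1 library can change a call. Bulk libraries do not show which cells carry Dlx transcripts. Peak lists are pooled, so their differences have no error. In the adult, Eed was not called lower and macrophage transcripts differed between the groups. Protein and histone marks were not analysed here.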
